A study of Homo sapiens with 48 samples.

Results

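Fibronectin (FN1), CD44, tenascin-C (TNC) and versican (VCAN) are proteins of the cell surface and the pericellular matrix whose messenger RNAs are made in several forms by the skipping or inclusion of cassette exons. They were chosen by gene name, as the 4 rows of the expression table that carry these symbols among 19847 rows, of which 19509 had a count in the libraries. Every cassette exon listed for them was taken with them, which gave 100 of the 175835 cassette exon events in the splicing table: 44 in FN1, 16 in CD44, 25 in TNC and 15 in VCAN. RNA sequencing was done on 48 libraries of IMR90 human lung fibroblasts carrying ER:RAS G12V, an oncogenic HRAS fused to the ligand-binding domain of the oestrogen receptor, so that 4-hydroxytamoxifen (4OHT) switches RAS on.

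The libraries form 6 groups of 8, and all of them carry the ER:RAS G12V fusion, the uninduced ones included. Cells received either DMSO, the solvent control, or 4OHT for 6 days, were then transfected with siRNA, and spent a further 2 days in medium with 0.5% FBS. The siRNAs were non-targeting (siNT1 and siNT2, the control), against SF3B1 (siSF3B1-13 and siSF3B1-16) or against RBM39 (siRBM39-06 and siRBM39-08), with 4 libraries for each siRNA in each drug. The groups are named here DMSO siNT, 4OHT siNT, DMSO siSF3B1, 4OHT siSF3B1, DMSO siRBM39 and 4OHT siRBM39. All groups come from a single cell line. The study's methods describe its cell culture replicates as independent experiments, while the labels of these libraries do not say so, and p-values measure the spread between libraries of that line. For 4 of the 4OHT libraries the title reads siNT2 and the treatment entry siNT1. The title was used, and either reading leaves them in 4OHT siNT.

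Fibronectin assembles into fibrils that integrins grip, and its extra domains B and A (EDB and EDA) are each encoded by a single exon that is skipped in the plasma form made by the liver and partly included in the cellular form made by fibroblasts. CD44 is the main receptor for hyaluronan, and a run of variant exons, v2 to v10, can be inserted into its extracellular stem. Mesenchymal cells mostly use the standard form without them. Tenascin-C carries extra fibronectin type III repeats between constant ones, and versican, a large proteoglycan that binds hyaluronan, carries chondroitin sulphate on segments encoded by its GAG-alpha and GAG-beta exons. SF3B1 is the U2 snRNP protein that holds the branch point region of the intron, and RBM39 is an RNA-binding splicing factor related to the large subunit of U2AF.

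The exons that moved most are printed here as they read in the transcript, from the GRCh37 genome and the GENCODE exons to which the events were matched by exon and intron lengths. Their familiar names were assigned from length and order along the gene. Capitals mark the letters GAAGAA, a purine-rich word of the kind bound by SR proteins, searched on the transcript strand only. EDB lies at chr2:216257654-216257926 and EDA at chr2:216245534-216245803, both on the minus strand and wholly coding. GAAGAA stands in EDA and not in EDB, and 19.2% of the 432 coding internal exons within 10 nt of the length of EDA hold it, counted over the 4 chromosomes that carry these genes.
EDB: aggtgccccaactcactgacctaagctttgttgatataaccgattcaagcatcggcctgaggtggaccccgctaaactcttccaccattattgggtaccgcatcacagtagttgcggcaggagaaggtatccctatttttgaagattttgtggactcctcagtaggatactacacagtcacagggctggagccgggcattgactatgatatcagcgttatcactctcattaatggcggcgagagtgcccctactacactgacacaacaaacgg
EDA: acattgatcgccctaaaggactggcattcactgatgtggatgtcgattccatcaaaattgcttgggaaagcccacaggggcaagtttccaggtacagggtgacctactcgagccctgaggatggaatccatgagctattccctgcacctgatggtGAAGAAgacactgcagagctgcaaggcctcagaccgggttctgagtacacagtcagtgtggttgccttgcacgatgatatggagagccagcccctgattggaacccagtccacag
The CD44 exons v8 (chr11:35229652-35229753), v9 (chr11:35231512-35231601) and v10 (chr11:35232793-35232996) are on the plus strand. The splicing table lists v10 with 186 nt, whereas the annotated exon printed here has 204 nt. GAAGAA is present in v9 and v10 and not in v8, against 12.5% of 5537 exons as long as v9 and 20.2% of 1652 as long as v10.
v8: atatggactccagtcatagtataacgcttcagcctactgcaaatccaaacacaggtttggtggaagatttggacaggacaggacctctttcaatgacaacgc
v9: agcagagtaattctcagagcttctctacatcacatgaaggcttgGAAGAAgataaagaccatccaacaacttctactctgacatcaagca
v10: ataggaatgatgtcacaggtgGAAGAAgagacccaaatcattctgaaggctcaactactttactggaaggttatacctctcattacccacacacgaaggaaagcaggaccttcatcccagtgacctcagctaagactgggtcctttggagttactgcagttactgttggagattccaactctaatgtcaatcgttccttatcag
The TNC repeats A1 (chr9:117826926-117827198), A3 (chr9:117825196-117825468) and C (chr9:117810539-117810811) are on the minus strand, each encoded by a single exon of 273 nt without GAAGAA. A1 and A3 share 71.4% of their bases, whereas A1 and C share 50.5% and A3 and C 52.0%.
A1: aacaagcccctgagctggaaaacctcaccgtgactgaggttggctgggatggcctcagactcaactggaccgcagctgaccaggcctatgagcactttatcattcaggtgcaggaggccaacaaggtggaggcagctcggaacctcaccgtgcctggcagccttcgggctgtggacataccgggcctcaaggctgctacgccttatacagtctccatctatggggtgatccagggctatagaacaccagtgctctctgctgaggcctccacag
A3: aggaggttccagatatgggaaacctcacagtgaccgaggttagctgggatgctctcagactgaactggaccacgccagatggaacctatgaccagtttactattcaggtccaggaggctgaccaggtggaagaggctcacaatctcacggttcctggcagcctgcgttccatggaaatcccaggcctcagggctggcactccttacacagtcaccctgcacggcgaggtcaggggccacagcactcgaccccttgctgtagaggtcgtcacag
C: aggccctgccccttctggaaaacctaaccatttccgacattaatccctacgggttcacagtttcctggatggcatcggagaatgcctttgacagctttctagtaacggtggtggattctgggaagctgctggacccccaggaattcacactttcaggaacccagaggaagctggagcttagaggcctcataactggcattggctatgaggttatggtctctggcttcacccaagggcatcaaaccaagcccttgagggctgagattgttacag

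The last 40 nt of the intron before each exon are shown for 4 of these exons because their content of pyrimidines, which U2AF binds, was both high and low. Capitals mark the AG at the intron end. C or T made up 77.5% of the window before EDB, percentile 94.1 among 37296 coding internal exons. It was 65.0% before EDA (percentile 56.4), 47.5% before CD44 v8 (percentile 3.70) and 52.5% before CD44 v9 (percentile 11.2).
Before EDB: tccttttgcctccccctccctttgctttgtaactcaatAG
Before EDA: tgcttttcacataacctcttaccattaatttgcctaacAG
Before v8: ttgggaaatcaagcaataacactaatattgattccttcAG
Before v9: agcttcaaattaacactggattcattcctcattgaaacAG
The other windows held 57.5% (v6 and v10), 80.0% (the 276-nt TNC exon between A3 and C, percentile 96.8), 55.0% (A1), 60.0% (A3), 72.5% (C) and 87.5% (the TNC repeat D, percentile 99.6). The letters TGCATG, the word read by RBFOX proteins, occurred in the 300 nt after EDB and after v10. They did not occur in the 300 nt after any of the other 9 exons examined, against 9.16% of the 37296 exons on the transcript strand. Inside the exons, TGCATG stood once in the 276-nt TNC exon, against 3.76% of 399 exons within 10 nt of its length. The stretch after EDB is shown with that word in capitals.
After EDB: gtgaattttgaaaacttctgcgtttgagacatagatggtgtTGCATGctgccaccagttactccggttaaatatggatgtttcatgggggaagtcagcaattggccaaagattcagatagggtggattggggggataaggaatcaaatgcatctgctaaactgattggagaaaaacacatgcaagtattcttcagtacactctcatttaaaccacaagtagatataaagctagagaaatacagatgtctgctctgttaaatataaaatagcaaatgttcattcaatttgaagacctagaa

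Library totals ran from 31467221 to 52734636 counts with a median of 39656598. The knockdowns were seen in every library: SF3B1 was at 311 to 396 CPM (counts scaled to the library size) in DMSO siNT and 30.4 to 35.2 in DMSO siSF3B1, and RBM39 was at 158 to 185 in DMSO siNT and 24.2 to 31 in DMSO siRBM39, with no overlap in 4OHT either. RBM39 was higher under siSF3B1 in both drugs, by 0.83 ± 0.05 and 1.06 ± 0.05 on the log2 scale (SE), and SF3B1 was higher under siRBM39 by 0.46 ± 0.08 and 0.29 ± 0.08. All 10 fibroblast markers were measured, with a summed level of 11511 to 12543 cRPKM (reads per mappable length and library size) in DMSO siNT and 4516 to 4714 in 4OHT siNT. Of immune markers, PTPRC and CD3E were at most 0.05 in a library and CD68 was at 21.1 to 66.1. Between DMSO siNT and 4OHT siNT the 4 smooth muscle markers went from 177 to 211 down to 39 to 43.2, nearly all of it ACTA2 and CNN1. The 6 measured epithelial markers went from 12.6 to 18.1 down to 4.49 to 6.77, most of it KRT8 and KRT19, with CDH1, ESRP1 and ESRP2 at most 0.53, and the 3 measured endothelial markers summed to at most 0.97 in a library. Replicate 4 of siRBM39-08 in 4OHT stood apart: it was the lowest of its group in all 4 genes, and its epithelial markers summed to 52.8 cRPKM, with KRT8 at 31.7, against 4.49 to 8.71 in the other 7. The part of these differences in the results was not tested. Without that library, no tested exon lost or gained its call between 4OHT siRBM39 and 4OHT siNT, and the differences in gene level are given with and without it.

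With RAS induction the 4 genes moved in opposite pairs: FN1 and VCAN fell, and CD44 and TNC rose. All 4 passed the test (edgeR quasi-likelihood test, Benjamini-Hochberg adjusted p below 0.05 over 9991 genes), in a comparison in which 78.1% of all genes did, 39% higher and 39.1% lower. Per length of transcript, the order of levels was the same in all 6 groups, FN1 above CD44 above TNC above VCAN, with group means of 2063, 356, 104 and 42.1 cRPKM in DMSO siNT. In bulk RNA, fewer cells of a type and less RNA per cell cannot be told apart.

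FN1 had a lowest, median and highest level of 16738, 17602 and 22117 CPM over the 8 DMSO siNT libraries, and of 6151, 6855 and 7388 in 4OHT siNT. The groups did not overlap, and FN1 fell by 1.40 on the log2 scale (SE 0.11, adjusted p = 4.39e-16), the 1116th largest change among 9991 genes. VCAN went the same way, from 474, 511 and 660 CPM in DMSO siNT to 208, 227 and 256 in 4OHT siNT, again without overlap (log2 fold change -1.19 ± 0.13, adjusted p = 1.03e-11). CD44 stood at 999, 1048 and 1137 CPM in DMSO siNT and at 1684, 1760 and 1905 in 4OHT siNT, every induced library above every uninduced one (0.75 ± 0.08, adjusted p = 1.44e-12). TNC rose from 737, 748 and 911 CPM to 1275, 1442 and 1502 (0.88 ± 0.09, adjusted p = 5.39e-13), without overlap. FN1, TNC and VCAN were each highest in the same DMSO siNT library, replicate 1 of siNT1, and without it no RAS call of the 4 genes was lost.

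With SF3B1 knockdown, CD44 rose in uninduced cells and VCAN in induced cells. CD44 ran from 1528 to 1691 CPM in DMSO siSF3B1, all above the 8 control libraries, a log2 fold change of 0.63 ± 0.08 (adjusted p = 3.77e-10), while in 4OHT siSF3B1 it ran from 1700 to 1887, inside the range reached in 4OHT siNT (0.02 ± 0.07, adjusted p = 0.824). The change with the knockdown differed between the drugs, with an interaction of -0.61 ± 0.11 (adjusted p = 8.27e-06). VCAN did the reverse: 335, 385 and 469 CPM in 4OHT siSF3B1, above every 4OHT siNT library (0.79 ± 0.13, adjusted p = 3.59e-07), and 496, 590 and 655 in DMSO siSF3B1, overlapping DMSO siNT (0.17 ± 0.13, adjusted p = 0.23). The VCAN value in DMSO did pass with only the groups of the comparison in the fit (0.16, adjusted p = 0.0353) and with siSF3B1-13 alone (0.26, adjusted p = 0.0117). The VCAN interaction was 0.62 ± 0.18 (adjusted p = 0.00485), which was 0.0748 with siNT2 alone as the control and 0.0522 without replicate 2 of every siRNA. FN1 was lower in 4OHT siSF3B1, at 5300, 5435 and 5792 CPM, each below every 4OHT siNT library (-0.31 ± 0.11, adjusted p = 0.00819), a call that missed the threshold with siNT2 alone (0.0646) and without replicate 2 (0.051).

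The remaining siSF3B1 values did not pass: FN1 in DMSO at 12733, 16143 and 19534 CPM (-0.15 ± 0.11, adjusted p = 0.192), TNC in DMSO at 737, 861 and 977 (0.17 ± 0.08, adjusted p = 0.0716) and TNC in 4OHT at 1258, 1457 and 1670 (0.04 ± 0.08, adjusted p = 0.703). The TNC value in DMSO passed without replicate 1 of siNT1 in DMSO (0.21, adjusted p = 0.031) and without replicate 4 of siRBM39-08 in 4OHT (0.17, adjusted p = 0.0163). So 1 of the 4 genes was called in DMSO, where 72.7% of all genes were (36.5% higher, 36.2% lower), and 2 in 4OHT, where 77.0% were (39.4% higher, 37.6% lower). FN1 in DMSO differed between the siRNAs, with means of 18319 CPM under siSF3B1-13 and 14136 under siSF3B1-16. For the interaction, 2 of the 4 genes were called against 37.8% of all genes.

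With RBM39 knockdown, TNC was lower in both drugs, and FN1, VCAN and CD44 were called in DMSO. TNC was at 471, 638 and 657 CPM in DMSO siRBM39, below every DMSO siNT library (-0.34 ± 0.08, adjusted p = 0.000945), and at 674, 1215 and 1279 in 4OHT siRBM39, of which the highest reached into the control range (-0.30 ± 0.08, adjusted p = 0.00246, and -0.22, adjusted p = 0.00444, without the library that stood apart). With siNT2 alone as the control, the TNC call in 4OHT missed the threshold (adjusted p = 0.109). In DMSO, FN1 was at 9699, 14842 and 16801 CPM (-0.34 ± 0.11, adjusted p = 0.00896), VCAN at 264, 448 and 498 (-0.32 ± 0.13, adjusted p = 0.0339) and CD44 at 900, 1214 and 1435 (0.19 ± 0.07, adjusted p = 0.0299). All 4 genes were thus called in DMSO, 1 up and 3 down, where 46.1% of all genes were (23.9% higher, 22.2% lower).

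The FN1, VCAN and CD44 calls rested on some of the libraries. Without replicate 1 of every siRNA the adjusted p was 0.0873 for FN1 and 0.189 for VCAN, and without replicate 2 it was 0.183 for CD44. The CD44 value also missed the threshold with limma-voom (adjusted p = 0.0515) and with only the groups of the comparison in the fit (adjusted p = 0.0611). Without replicate 1 of siNT1 in DMSO, where VCAN was highest, the VCAN value was -0.27 (adjusted p = 0.0885). With siRBM39-08 alone, FN1 was at -0.17 (adjusted p = 0.227) and VCAN at -0.16 (adjusted p = 0.364), with means of 16051 and 468 CPM against 12559 and 370 under siRBM39-06. The CD44 difference came with the other siRNA: the mean was 1368 CPM under siRBM39-08 and 1047 under siRBM39-06, the latter next to the DMSO siNT mean of 1055. In 4OHT siRBM39, FN1 ran from 3177 to 7594 CPM (-0.06 ± 0.11, adjusted p = 0.664), VCAN from 91.3 to 282 (0.05 ± 0.13, adjusted p = 0.768) and CD44 from 1227 to 2216 (0.09 ± 0.07, adjusted p = 0.318), so 1 of 4 was called against 56.4% of all genes (32.2% higher, 24.3% lower). Leaving out the library that stood apart put FN1 at 0.04 (adjusted p = 0.657), VCAN at 0.17 (adjusted p = 0.107) and CD44 at 0.16 (adjusted p = 0.0228). It also gave called interactions of 0.38 for FN1 (adjusted p = 0.0112) and 0.49 for VCAN (adjusted p = 0.00339), whereas with all libraries none of the 4 siRBM39 interactions passed with edgeR or DESeq2, against 14.1% of all genes, and 1 of them, VCAN at 0.37 ± 0.18, had an unadjusted edgeR p below 0.05. With siRBM39-06 alone, FN1 (0.60, adjusted p = 4.6e-05) and VCAN (0.71, adjusted p = 6.42e-05) passed, and so they did without replicate 4 (0.46 and 0.60). The CD44 interaction was called with siRBM39-08 alone, at -0.44 (adjusted p = 0.000883), and with siRBM39-06 alone it was called with the opposite sign, at 0.23.

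Set against each other, siSF3B1 left higher TNC and VCAN than siRBM39 in both drugs. The log2 difference in DMSO was 0.51 ± 0.08 for TNC (adjusted p = 1.07e-06), 0.49 ± 0.13 for VCAN (adjusted p = 0.000727) and 0.43 ± 0.07 for CD44 (adjusted p = 1.94e-06), with FN1 at 0.18 ± 0.11 (adjusted p = 0.13). With RAS induced, the difference was 0.34 ± 0.08 for TNC (adjusted p = 0.000479), 0.74 ± 0.13 for VCAN (adjusted p = 1.45e-06) and -0.25 ± 0.11 for FN1 (adjusted p = 0.0324), with CD44 at -0.07 ± 0.07 (adjusted p = 0.408). So 3 of the 4 genes were called in each drug, where 67.7% and 71.4% of all genes were. The VCAN difference in DMSO missed the threshold with siSF3B1-16 and siRBM39-08 alone (0.21, adjusted p = 0.267). The FN1 difference in 4OHT missed the threshold without replicate 1, 2 or 3 (adjusted p = 0.092, 0.17 and 0.188). It also missed it with limma-voom (-0.21, adjusted p = 0.0884), with only the groups of the comparison in the fit (adjusted p = 0.067), with siNT1 alone (adjusted p = 0.0562) and with siSF3B1-16 and siRBM39-08 alone (-0.13, adjusted p = 0.387). Without the library that stood apart, the FN1 difference in 4OHT was -0.36 (adjusted p = 0.000142), with TNC at 0.25 and VCAN at 0.62 in 4OHT (adjusted p = 0.000691 and 6.62e-08). The differences of CD44 in 4OHT (-0.14, adjusted p = 0.036) and FN1 in DMSO (0.18, adjusted p = 0.0369) were then called as well.

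**Figure D1:**
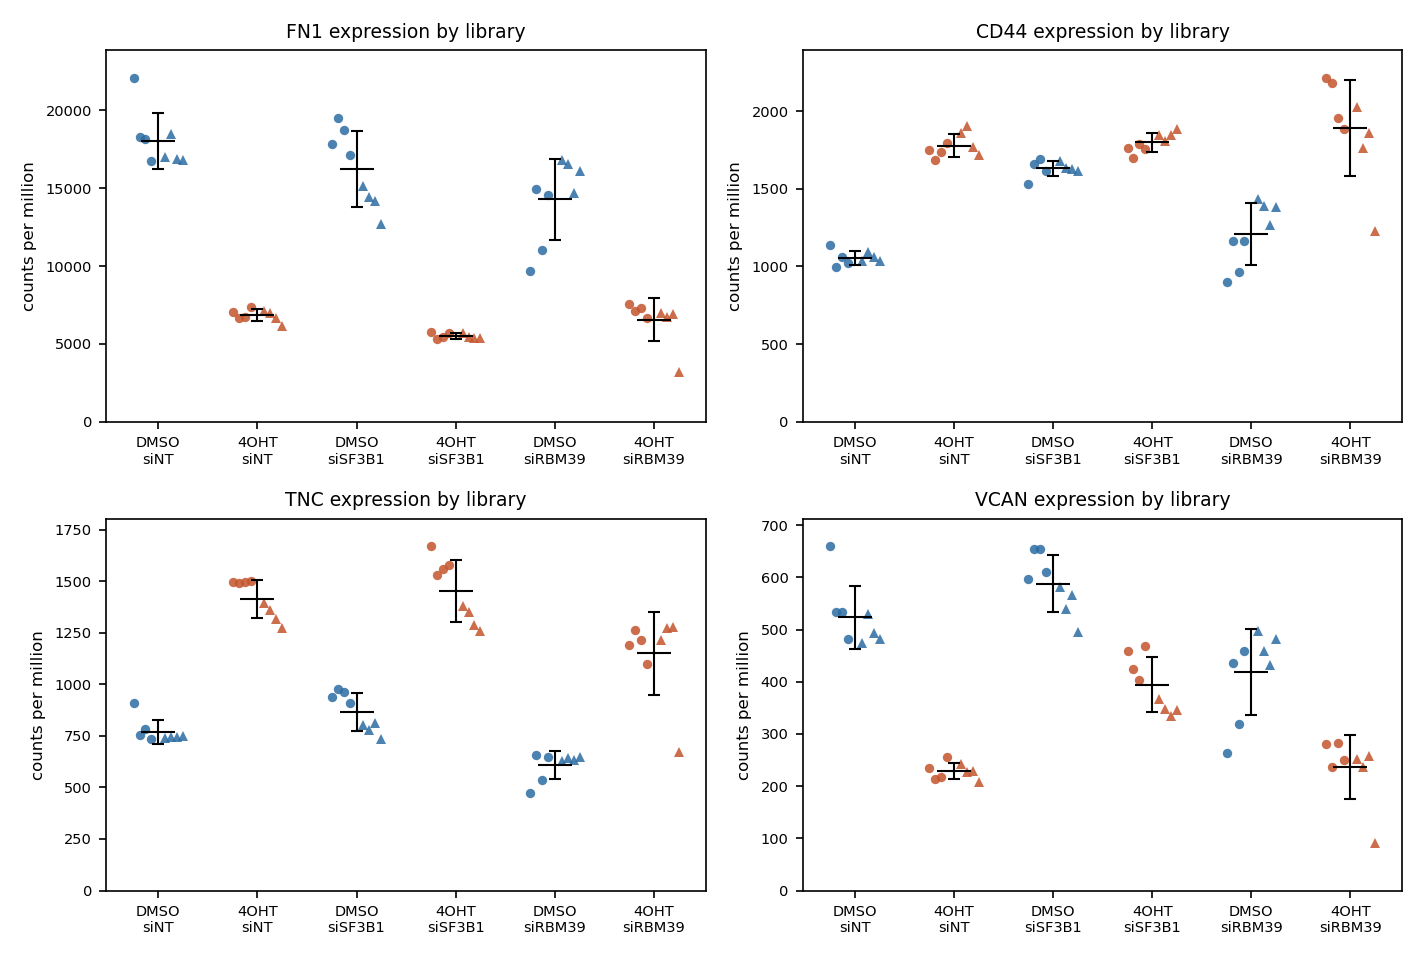
Level of FN1, CD44, TNC and VCAN in CPM (vertical axis, linear from 0) in each of the 48 libraries by group, blue for DMSO and orange for 4OHT, with circles and triangles for the 2 siRNAs of a group and a bar for the mean ± SD of 8 libraries. FN1 and VCAN sit lower and CD44 and TNC higher in 4OHT siNT than in DMSO siNT, and a single 4OHT siRBM39 library is the lowest of its group in all 4 genes.

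Exon inclusion was read as the percent spliced in (PSI), the share of transcripts that hold the exon, from junction reads. Of the 100 exons, 11 were tested, 75 were covered in all 48 libraries but spanned less than 5 points between the lowest and the highest library, and 14 were too thinly covered. Of the 75, 68 were never below a PSI of 95. The tested exons were EDA and EDB in FN1, v6, v8, v9 and v10 in CD44, and A1, A3, C, D and a 276-nt exon between A3 and C in TNC. No VCAN exon was tested, since 5 of its 15 were covered and none of those fell below 95. An exon was called when its difference was at least 5 points with an adjusted p below 0.05 (limma on logit PSI over 7673 exons).

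EDA carried the largest difference of these exons under RBM39 knockdown. Its PSI had a lowest, median and highest value of 58.1, 61.1 and 68.1 in DMSO siNT and 58.8, 62.4 and 68.0 in 4OHT siNT. It was 34.4, 39.9 and 43.2 in DMSO siRBM39 and 29.3, 33.7 and 38 in 4OHT siRBM39. Every library with RBM39 knocked down was below every siNT library. The mean fell by 22.4 points in DMSO (61.3 ± 3.03 to 38.9 ± 3.63, SD, adjusted p = 2.11e-09) and by 29.2 points in 4OHT (62.9 ± 3.91 to 33.6 ± 2.80, adjusted p = 6.35e-13), which ranked 82nd and 42nd in size among 7673 exons. Both siRNAs gave it, with DMSO means of 41.4 for siRBM39-06 and 36.4 for siRBM39-08 and 4OHT means of 33.3 and 33.9, and without the library that stood apart the 4OHT difference was -29.9. Under siSF3B1, EDA ran from 53.0 to 64.0 in DMSO (-2.03 points, adjusted p = 0.53) and from 52.1 to 60.2 in 4OHT (-5.77 points, adjusted p = 0.0481, 0.0549 in a quasi-binomial model of the read counts and 0.0541 without replicate 4). RAS induction left EDA within its spread (1.57 points, adjusted p = 1).

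EDB moved with RAS and, in induced cells, with RBM39. Its PSI was 45.7, 48.7 and 51.5 in DMSO siNT and 33.3, 35.2 and 37.8 in 4OHT siNT, with no overlap, and fell by 13.4 points (adjusted p = 0.000336), a fall of 12.4 points with siNT1 alone (adjusted p = 0.0682). In 4OHT siRBM39 it was 45.6, 51.8 and 53.7, above every 4OHT siNT library, a rise of 15.5 points (adjusted p = 3.86e-06, and 16.3 points without the library that stood apart). In DMSO siRBM39 it was 49.8, 53.6 and 58.1, a difference of 5.24 points that did not pass (adjusted p = 0.205) but did in the model of the read counts (5.20 points, adjusted p = 0.000593). The difference between the drugs was 10.3 points (adjusted p = 0.634), and it passed in the model of the read counts (adjusted p = 0.0268) and with only the groups of the comparison in the fit (adjusted p = 0.00291). EDB therefore went up where EDA went down: in 4OHT siRBM39 the mean was 50.9 ± 3.14 for EDB and 33.6 ± 2.80 for EDA, against 35.4 ± 1.44 and 62.9 ± 3.91 in 4OHT siNT.

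Under siSF3B1, EDB was 47.3 to 54.1 in DMSO (1.68 points, adjusted p = 0.614) and 30.9 to 43.5 in 4OHT (2.44 points, adjusted p = 0.425). In 4OHT the siRNAs gave different levels, 33.6 under siSF3B1-13 and 42.2 under siSF3B1-16, and with the latter alone the rise was called (6.74 points, adjusted p = 9.31e-05). The V region exon, listed as an event of 192 nt, was included at 93.7 to 98.4 in every library and did not reach the minimum range. By the two-sided exact permutation test of 8 against 8 libraries its PSI was 1.35 points higher in DMSO siSF3B1 (p = 0.00109), 1.31 higher in 4OHT siSF3B1 (p = 0.00155) and 1.34 lower in 4OHT siRBM39 (p = 0.00326), among 621 such tests on 89 exons of which 49 had p below 0.05. Reads per library behind EDA were 344 to 3644 and behind EDB 284 to 3161.

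**Figure D2:**
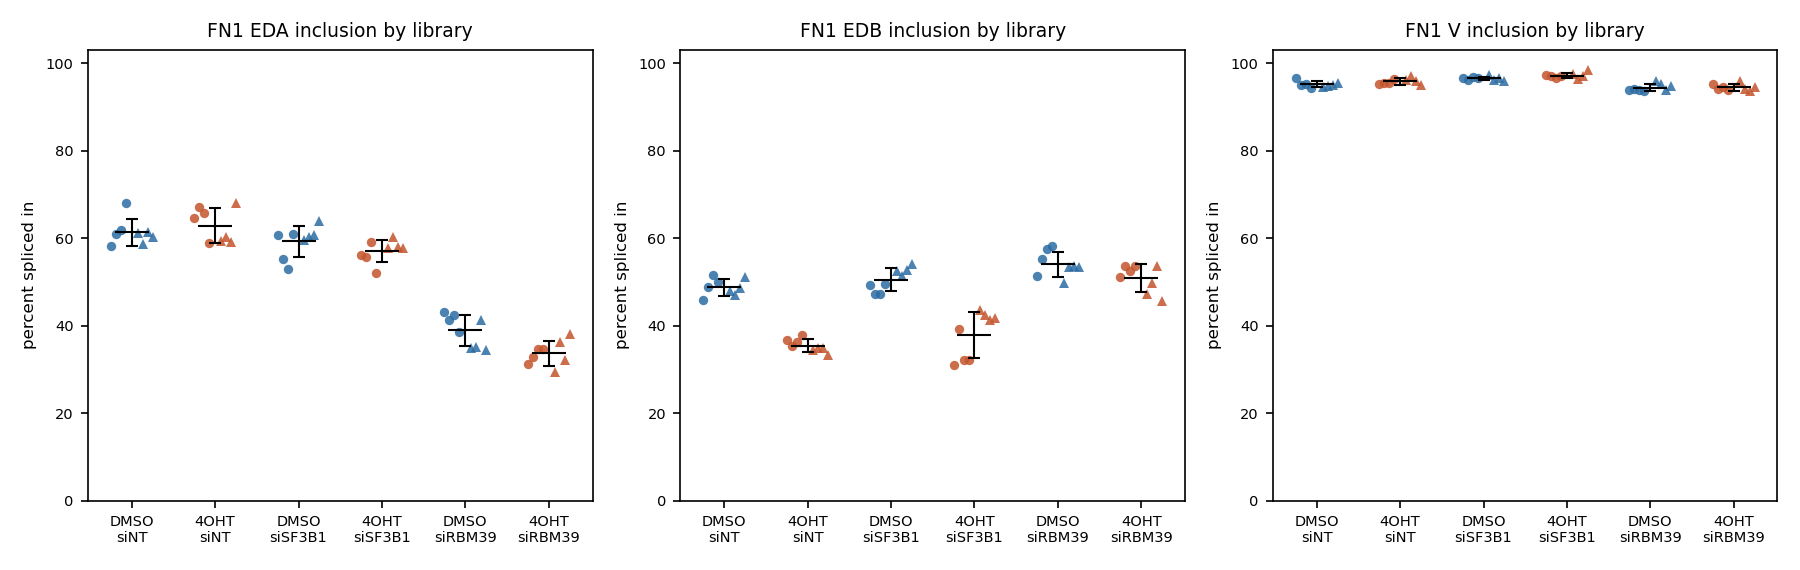
PSI of the FN1 exons EDA, EDB and V (vertical axis, percent) in each library by group, with the mean ± SD of 8 libraries. EDA lies at 29.3 to 43.2 in the RBM39 knockdown groups and at 52.1 or above in all others, and EDB is lower in 4OHT siNT than in DMSO siNT.

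The CD44 variant exons were used at low levels, and the last 3 of the run went up with SF3B1 knockdown and, for v10, with RAS. In DMSO siNT v8, v9 and v10 were at 2.23 ± 0.60, 2.62 ± 0.52 and 6.03 ± 1.75 (SD). In DMSO siSF3B1 the lowest, median and highest PSI of v10 were 16.8, 18.1 and 20.1, against 4.10, 5.57 and 9.72 in DMSO siNT, a rise of 12.3 points (adjusted p = 3.48e-12). The v8 exon went from 1.35 to 3.09 up to 7.17 to 10.95 (6.20 points, adjusted p = 6.92e-09) and v9 from 1.92 to 3.35 up to 7.25 to 12.1 (6.92 points, adjusted p = 2.20e-10). No library of either group crossed over for these 3 exons. In 4OHT the v10 PSI was 13.5, 14.8 and 17.4 with siNT and 21.4, 23.2 and 24.9 with siSF3B1, a rise of 8.04 points without overlap (adjusted p = 0.00025). The v8 and v9 exons were 2.63 and 3.08 points higher there, under the 5-point minimum (adjusted p = 0.0345 and 0.021).

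RAS induction raised v10 by 9.21 points (adjusted p = 5.46e-08), and every 4OHT siNT library was above every DMSO siNT library. It also put v9 4.77 points (adjusted p = 4.18e-06) and v8 3.35 points higher (adjusted p = 0.000915), both under the minimum. RBM39 knockdown went the other way: v9 was at 5.07 to 9.32 in 4OHT siNT and 1.10 to 3.99 in 4OHT siRBM39, a fall of 5.32 points (adjusted p = 5.01e-09, and -5.59 without the library that stood apart), which was -4.96 with siRBM39-08 alone, just under the minimum. The v8 exon was lower by 3.90 points in 4OHT (adjusted p = 5.24e-07, and -4.29 points without that library), while v10 did not move past its spread (-2.44 points in 4OHT, adjusted p = 0.32, and -2.95 without the library that stood apart). In DMSO the siRBM39 differences were -1.93 points for v9 (adjusted p = 5.50e-06) and -1.30 for v8 (adjusted p = 0.00737). No DMSO siNT library exceeded 3.35 for v9 or 3.09 for v8, so a fall of 5 points was not possible there. The set of v8, v9 and v10 was higher in siSF3B1 than in siRBM39 in both drugs, by 7.50, 8.85 and 12.5 points in DMSO and 6.53, 8.39 and 10.5 in 4OHT, all called.

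The v6 exon was between 0.39 and 7.58 in all libraries and was not called in a comparison. The v2, v3, v4, v5 and v7 exons never exceeded a PSI of 5.88, and of these v5 was 2.10 points higher in DMSO siSF3B1 and 1.41 higher in 4OHT siSF3B1 (exact permutation test, p = 0.000311 and 0.000466). The 6 constant CD44 exons among the events stayed above 95 in all libraries. A 215-nt exon that was not matched to the annotation rested on 1 to 45 reads in a library, with mean PSI values of 14.1 ± 12.3 in DMSO siNT and 69.1 ± 15 in DMSO siSF3B1 (exact permutation test, p = 0.000155, the smallest that 8 against 8 can give). Reads per library behind v6, v8, v9 and v10 were 117 to 571. Most of the exons called with siSF3B1 fell, since 1.04% of the 7673 tested rose and 25.7% fell in DMSO, and 1.04% rose and 29% fell in 4OHT, whereas the called CD44 exons rose. In DMSO siNT no library exceeded 3.09 for v8 or 3.35 for v9, so a called fall was not possible for them. The v10 exon had little room to fall there, with means of 5.36 under siNT1 and 6.71 under siNT2. In 4OHT siNT it was at 13.5 or more, so a called fall was possible.

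**Figure D3:**
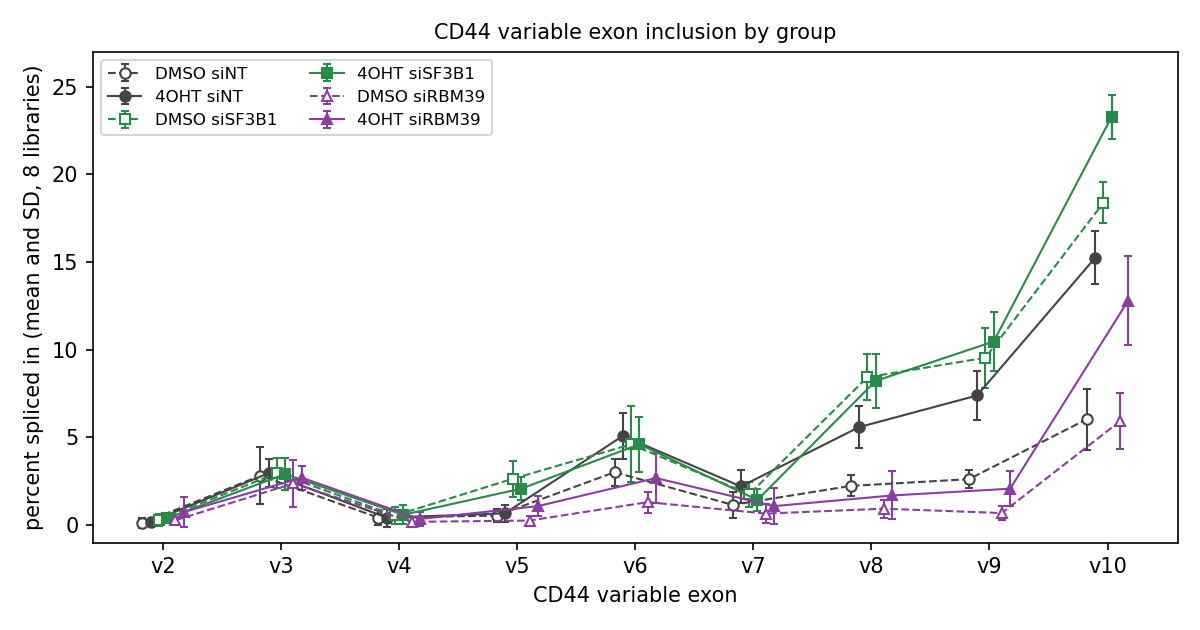
Mean PSI ± SD (vertical axis, percent) of the CD44 variant exons v2 to v10 (horizontal axis, in the order of the gene) in the 6 groups of 8 libraries. The exons up to v7 lie at or below 5.09 in every group, and v8 to v10 climb to 8.22, 10.5 and 23.3 in 4OHT siSF3B1.

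Across TNC the extra repeats did not move together in every comparison. A3 was mostly included in controls, with a PSI of 86.1, 93.8 and 100 in DMSO siNT and 92.7, 98.2 and 98.7 in 4OHT siNT, and it fell with RBM39 knockdown to 76.4, 83.4 and 93.3 in DMSO (-9.71 points, adjusted p = 0.0102) and to 57.8, 76.3 and 91.3 in 4OHT (-21.6 points, adjusted p = 8.34e-06). Every 4OHT siRBM39 library was below every 4OHT siNT library, and without the library that stood apart the fall was 19.1 points. The DMSO call was lost in the model of the read counts (adjusted p = 0.0826), with only the groups of the comparison (0.0628) and without replicate 1 (0.369). It was also lost with siRBM39-06 or siRBM39-08 alone (0.076 and 0.11) and with siNT2 alone (0.0707). Reads behind A3 were 38 to 173 in a library. C, mostly skipped in controls, was at 13.6, 19.7 and 22.9 in DMSO siNT and fell to 8.63, 12.9 and 17.8 in DMSO siRBM39 (-5.87 points, adjusted p = 0.0143, 0.0793 without replicate 4, 0.13 with siRBM39-06 alone and 0.0976 and 0.0672 with siNT1 or siNT2 alone). In 4OHT it fell from 19.95, 22.3 and 25.5 to 7.52, 12.3 and 14.1, with no overlap (-11.1 points, adjusted p = 6.24e-06, and -11.3 without the library that stood apart). Both A3 and C were therefore skipped more often after RBM39 knockdown in 4OHT, without overlap, while their calls in DMSO were lost under several alternatives. D, also 273 nt long, differed by 2.12 points in 4OHT (adjusted p = 0.00014) and by -1.27 points in DMSO (adjusted p = 0.00953), both under the minimum. In DMSO siRBM39 no tested TNC exon had a higher mean than in DMSO siNT.

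SF3B1 knockdown moved the TNC repeats in different directions. D ran from 98.9 to 100 in DMSO siNT and from 89.8 to 97.1 in DMSO siSF3B1, a fall of 5.51 points without overlap (adjusted p = 3.74e-11), which was 4.57 without replicate 4. C rose by 6.02 points in DMSO (17.6 to 28.5 in DMSO siSF3B1, adjusted p = 0.023), a call lost with siSF3B1-13 alone (4.16 points, adjusted p = 0.168), with either non-targeting siRNA alone (adjusted p = 0.0573 and 0.116) and without replicate 1 (3.93 points, adjusted p = 0.118). In 4OHT it was A3 that fell, to 83.1, 90.5 and 93.9 (-7.43 points, adjusted p = 0.00422, and 0.0779 with siSF3B1-16 alone). The 276-nt exon between A3 and C was skipped almost throughout, at 0 to 5.25 in all libraries, with group means of 0.96 in DMSO siNT and 3.23 in DMSO siSF3B1 (2.28 points, adjusted p = 2.13e-06, under the minimum). No library outside DMSO siSF3B1 exceeded 2.76, so this exon reached the 5-point range only through that group. Its p-value there is not independent of that choice.

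A1 was lower in 3 comparisons, on the fewest reads of the tested exons (31 to 146 in a library). Its PSI was 88.4, 97.5 and 100 in DMSO siNT, whereas 4OHT siNT had 82.4, 88.7 and 92.9. DMSO siSF3B1 had 75.2, 81.9 and 100 and DMSO siRBM39 had 76.2, 81.3 and 95.1, so that each of these ranges overlapped that of DMSO siNT. The falls were 8.08 points with RAS (adjusted p = 0.0302), 11.5 with siSF3B1 in DMSO (adjusted p = 0.00228) and 13.4 with siRBM39 in DMSO (adjusted p = 0.000578). The RAS call was lost in the model of the read counts (adjusted p = 0.122) and without replicate 2, 3 or 4 (adjusted p = 0.22, 0.427 and 0.324). The siSF3B1 call was lost without the same replicates (0.0767, 0.0803 and 0.0965), and the siRBM39 call without replicate 3 (0.0555). Between the knockdowns, C was higher in siSF3B1 than in siRBM39 by 11.9 points uninduced (adjusted p = 1.83e-06) and 15.3 induced (adjusted p = 9.85e-09), and A3 by 8.74 (adjusted p = 0.0108) and 14.2 (adjusted p = 0.0274), the last at 11.7 points and adjusted p = 0.0662 without the library that stood apart. The A3 call in DMSO was lost with siSF3B1-13 and siRBM39-06 alone (6.79 points, adjusted p = 0.387) and without replicate 1 or 2 (0.0538 and 0.112), and that in 4OHT with either pair of siRNAs alone (0.19 and 0.181) and without replicate 2 or 4 (0.0566 and 0.212).

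**Figure D4:**
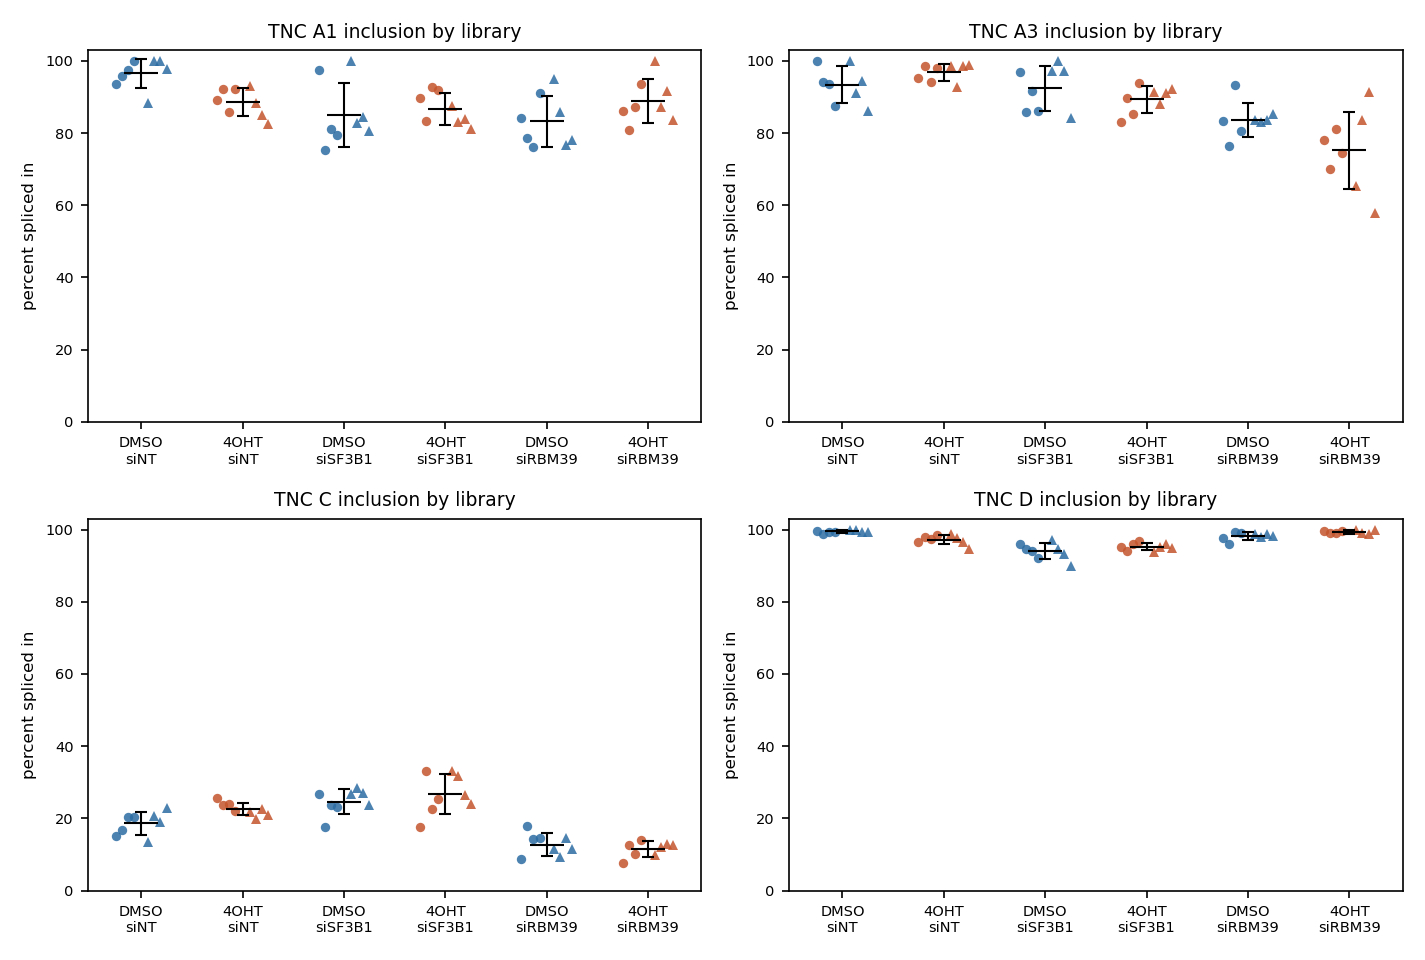
PSI of TNC cassette exons encoding extra fibronectin type III repeats (vertical axis, percent) in each library by group, with the mean ± SD of 8 libraries. A3 and C are lowest in 4OHT siRBM39, with means of 75.2 and 11.4, and D is lowest in DMSO siSF3B1, with a mean of 94.0.

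Counted over all 11 tested exons, 3 were called with RAS (1 up, 2 down), where 1.60% of the 7673 exons were (0.482% up, 1.12% down). With siSF3B1, 6 were called in DMSO (4 up, 2 down) against 26.8% of all, and 3 in 4OHT (1 up, 2 down) against 30%. With siRBM39, 4 were called in DMSO (all down) against 8.26% (1.04% up, 7.22% down), and 5 in 4OHT (1 up, 4 down) against 9.34% (1.13% up, 8.21% down). Between siSF3B1 and siRBM39, 6 were called in DMSO and 7 in 4OHT, against 23.4% and 26.3%, and EDA was higher in siSF3B1 by 20.4 and 23.5 points (adjusted p = 4.75e-09 and 7.23e-11). These comparisons share their control libraries. The interaction of drug and knockdown was called by limma in none of the 11, against 0.613% (siSF3B1) and 0.0391% (siRBM39) of all exons. Of the 11, 6 (siSF3B1) and 4 (siRBM39) had an unadjusted limma p below 0.05, for which the share of all exons was not counted. At an adjusted p below 0.05 alone, 79 of the 7673 exons passed for siSF3B1. Among them were CD44 v9 (-3.85 points, 0.0165), CD44 v10 (-4.30 points, 0.025) and TNC D (3.54 points, 0.00994). For siRBM39, TNC D passed in that way (3.39 points, 0.00101). Without replicate 1, the A1 interaction was called for both, at 16.2 points (adjusted p = 0.00071) and 17 points (adjusted p = 0.00171).

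The VCAN GAG-alpha exon (chr5:82815168-82818128, 2961 nt, plus strand, wholly coding) was covered by 1 to 51 reads in a library, below the coverage asked of tested exons. Its PSI was 47.9, 62.1 and 77.8 in DMSO siNT and 27.1, 39.2 and 46.9 in DMSO siSF3B1, with no overlap (-22.7 points, exact permutation test, p = 0.000155). In 4OHT it was 29, 47.8 and 78.8 with siNT and 23.3, 36.1 and 49.2 with siSF3B1 (-14.7 points, p = 0.0326 by the same exact test). With siRBM39 the means were 70.1 ± 14.6 in DMSO and 61.8 ± 17.6 in 4OHT, against 60.7 ± 10.1 and 51.0 ± 15.2 with siNT (9.47 and 10.8 points, p = 0.152 and 0.216 by the exact permutation test). A 1155-nt VCAN exon that was not matched to the annotation, with 0 to 30 reads in a library, was 31.5 points lower in DMSO siSF3B1 (exact permutation test, p = 0.000466). The GAG-beta exon was not analysed here.

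**Figure D5:**
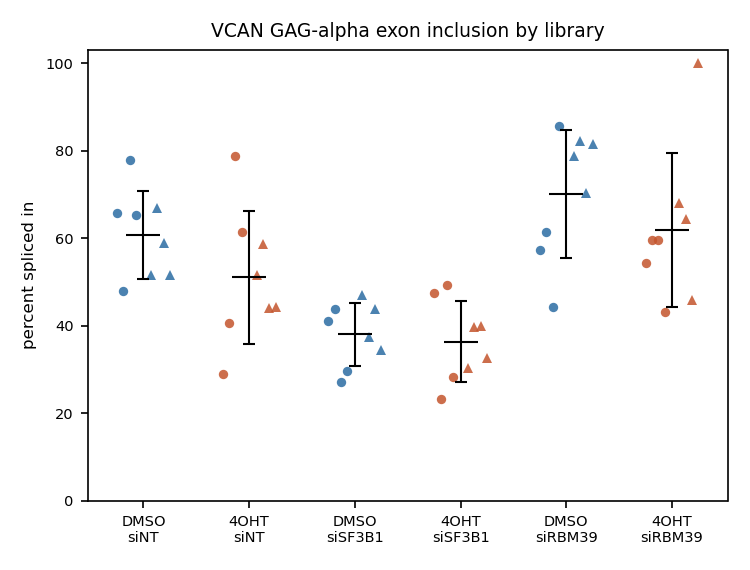
PSI of the VCAN GAG-alpha exon (vertical axis, percent) in each library by group, with the mean ± SD of 8 libraries. All DMSO siSF3B1 libraries lie at or below 46.9 and all DMSO siNT libraries at or above 47.9.

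Intron retention was measured as the share of transcripts that keep an intron. Of the introns of the 4 genes, 5 were tested and none was called by limma in the 5 comparisons with siNT (3 had an unadjusted p below 0.05 in at least 1 of them), against 0.0953% of 5248 introns with RAS, 11.1% and 14.9% with siSF3B1 and 2.06% and 2.08% with siRBM39. The nearest was the 1191-nt CD44 intron between v9 and v10, at 1.27 ± 1.09 in DMSO siNT and 5.54 ± 0.74 in DMSO siSF3B1 (4.26 points, adjusted p = 2.52e-07) and 4.52 points higher in 4OHT siSF3B1 (adjusted p = 3.50e-08), under the 5-point minimum. No library outside siSF3B1 exceeded 3.13 for this intron, so it reached the 5-point range only through the siSF3B1 libraries. These p-values are not independent of that choice. Introns whose reads were unevenly spread over the exon borders and the intron body in any library were set aside by a balance filter. Without it, a choice made after seeing the data, 4 further CD44 introns of 8055, 2835, 475 and 1471 nt were 11.2, 11.2, 9.78 and 6.29 points higher in DMSO siSF3B1, all called. The first 3 of these were also called in 4OHT siSF3B1, at 7.59, 6.24 and 6.34 points. In the order given, these 4 introns failed the balance filter in 42, 25, 2 and 9 of the 48 libraries, so their values are not equally secure. Outside siSF3B1, no library exceeded 4.77, 3.83 and 3.16 for the introns of 2835, 475 and 1471 nt. These too reached the 5-point range only through siSF3B1. Without the filter, 0.748% of 8557 introns were called with RAS, 24.3% and 29.7% with siSF3B1 and 6.82% and 7.28% with siRBM39. Of alternative splice sites, 1 in FN1 and 1 in CD44 were tested, with smallest adjusted p-values of 0.0569 and 0.146 among the 5 comparisons with siNT.

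Partners of these proteins were taken from 3 lists of genes, of which 13 of 16 (fibronectin receptors and assembly), 11 of 20 (hyaluronan and CD44 partners) and 7 of 15 (lecticans, tenascins and versican proteases) passed the count minimum. The shares of all tested genes called were 78.1% with RAS, 72.7% and 77.0% with siSF3B1 and 46.1% and 56.4% with siRBM39 (DMSO and 4OHT). With RAS, 5 of the 13 fibronectin partners rose and 7 fell, against 78.1% of all genes, with a list median of -0.475 against -0.0019 for all genes on the log2 scale. Among them FBLN1, a fibulin that binds fibronectin, fell by 5.01, and FBN1, the microfibril protein fibrillin, fell by 1.63, while ITGB5, an integrin subunit, rose by 1.29 and the crosslinking enzyme TGM2 by 0.99. With siSF3B1, 4 rose and 6 fell in DMSO, near the 72.7% of all genes (TGM2 fell by 1.40 and the integrin subunit ITGA4 by 1.28) and 4 rose and 5 fell in 4OHT. With siRBM39, 2 rose and 4 fell in DMSO and 5 rose and 4 fell in 4OHT, with ITGA4 lower by 1.45 and 1.26 and ITGA3 by 0.47 and 0.53.

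Of the 11 hyaluronan genes, 5 were higher and 4 lower with RAS (median 0.216), a share near the 78.1% of all genes. HAS2, which makes hyaluronan, rose by 3.97 and TMEM2, which degrades it, by 2.37, whereas ADAM10, a sheddase of CD44, fell by 0.71. With siSF3B1, 3 rose and 2 fell in DMSO (72.7% of all genes called) and 6 rose and 4 fell in 4OHT (77.0%), where TNFAIP6, which links hyaluronan to other matrix proteins, rose by 1.66 and HAS2 fell by 0.82. With siRBM39, 2 rose and 1 fell in DMSO (46.1%) and 2 rose and 3 fell in 4OHT (56.4%), with the link protein HAPLN3 higher by 0.93 and 0.73 and HYAL3 lower by 1.07 and 1.03. Of the 7 genes of the lectican list, 1 rose and 6 fell with RAS (median -2.11, against 78.1% of all genes called), led by the small proteoglycan DCN at -5.05 and ADAMTS15 at -4.65. The versican-cleaving proteases ADAMTS5 and ADAMTS1 rose by 2.46 and 1.52 with siSF3B1 in 4OHT, where 5 of the list rose and 2 fell, and by 0.57 and 0.39 in DMSO, where 2 rose and 3 fell. With siRBM39, 2 of the 7 rose in DMSO and 3 in 4OHT, and none fell, against 46.1% and 56.4% of all genes called.

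Of 22 splicing regulators known for these or similar exons, 15 were tested. With RAS, 5 rose and 4 fell, against 78.1% of all genes called, with HNRNPA1 lower by 0.86 and KHDRBS1, which acts on CD44 variant exons, lower by 0.56. With siSF3B1, 8 rose and 5 fell in DMSO and 6 rose and 6 fell in 4OHT (72.7% and 77.0% of all genes). SRRM1 was higher by 0.89 and 0.95 and HNRNPH1 lower by 0.64 and 0.69. With siRBM39, 6 rose in DMSO and none fell, and 7 rose and 3 fell in 4OHT (46.1% and 56.4% of all genes). SRRM1 was higher by 0.49 and 0.65 and HNRNPL by 0.47 and 0.52. ESRP1 and ESRP2, epithelial regulators that raise the CD44 variant exons, were at or near 0, at most 0.53 and 0.08 cRPKM in a library.

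The genes whose log2 CPM was most like each member over the 48 libraries were MYO6 and AFF3 (Pearson r = 0.976) and APPBP2 (0.975) for FN1, and CS, USP15 (0.95) and BHLHE40 (0.947) for CD44. For TNC they were EDEM1 (0.969), ITGB1 (0.963) and MYC (0.961), and for VCAN SIX4 (0.974), TBL1XR1 and ELF1 (0.973). Among the members, r was 0.788 for FN1 with VCAN, 0.794 for CD44 with TNC and -0.69 for FN1 with TNC. The points share the 6 groups, so these values describe the pattern over groups and carry no test.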

How the data were processed

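RNA sequencing (mRNA capture) was done on 48 libraries. Per the study's methods, reads were mapped and quantified by the authors in vast-tools, version 2, with an hg19 database. The deposited tables hold gene counts, cRPKM (RPKM corrected for mappability) and, per splicing event, the percent spliced in with a quality score. The labels name hg19, edgeR and limma, without versions. The listed event coordinates fit GRCh38, so events were matched by length to GENCODE exons of GRCh37 (44, 15, 23 and 13 of the FN1, CD44, TNC and VCAN exons), and no coordinate was converted. The authors' normalised table was not used.

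From these values, genes with at least 10000 counts in total (9991) were tested with edgeR 4.0.16 (TMM, quasi-likelihood), with all 6 groups in a single fit and both siRNAs of a target pooled. Exons and introns with at least very low coverage in all libraries and a range of 5 points were tested with limma 3.58.1 on the logit of 0.01 + 0.98 × PSI as a fraction, and called at a Benjamini-Hochberg adjusted p below 0.05 and 5 points. Introns also needed a balance p of at least 0.05 in every library. The remaining exons were compared by two-sided exact permutation tests of 8 against 8 libraries. CPM are counts over TMM-scaled library sizes. R 4.3.3, Python 3.11.15 and DESeq2 1.42.0 (alternative) were used, and the scripts were tested on simulated data. Depth was 31467221 to 52734636 counts a library.

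The genes named were the 4 members, the knocked-down genes, up to 2 rising and 2 falling called genes per list and the 3 most alike in pattern; ESRP1, ESRP2 and the marker genes named were added as controls. The members and lists were chosen with earlier results of these data known. No pair of replicate libraries (72 pairs) differed by less than sampling noise. Alternatives covered the test, the scaling, the count, coverage and range filters, the siRNAs and each replicate left out. The study's methods state 3 replicates where the labels give 4. A further result, with its sequence, is not reported here.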

Additional observations from a re-analysis of the deposited data

Results flagged for a closer look

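In 8 of 90 groups of values looked at (4 genes and their tested exons in 6 groups of 8 libraries), the highest or lowest library lay further from the rest than Dixon's 95% limit, which chance passes in about 1 of 20. In 4OHT siRBM39 the library of siRBM39-08 replicate 4 was far below the others for all 4 genes, with CD44 at 1227 CPM, FN1 at 3177 CPM, TNC at 674 CPM and VCAN at 91.3 CPM. In DMSO siNT the library of siNT1 replicate 1 was far above the others for 3 genes, with FN1 at 22117 CPM, TNC at 911 CPM and VCAN at 660 CPM. The EDA PSI was highest in siNT1 replicate 4 in DMSO, at 68.1.

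The change with SF3B1 knockdown differed between induced and uninduced cells for CD44, with an interaction of -0.61 on the log2 scale (edgeR, adjusted p = 8.27e-06), and for VCAN, with 0.62 (edgeR, adjusted p = 0.00485). In each case the libraries of 1 drug overlapped their controls and those of the other did not.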

How the results depend on the processing

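Over all alternatives, 545 of 648 log2 fold changes and 1746 of 1881 PSI differences of the members kept their direction and their side of the threshold. A called value turned direction once: CD44 with siRBM39 in DMSO was -0.0154 with siRBM39-06 alone, where the cause was not tested. The replicate numbers did not pair the libraries (15 of 48 were most alike their own number), and the replicate block gave 7763 genes and 121 exons called with RAS against 7798 and 123 without it. It changed 1 member call, EDA with siSF3B1 in 4OHT (adjusted p = 0.0549).

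Values not called that turned sign, on the log2 scale, were VCAN with siRBM39 in 4OHT (-0.0169 with limma-voom, -0.15 with siRBM39-08 alone), CD44 with siSF3B1 in 4OHT (-0.00806 with only the groups compared, -0.00855 with siNT2 alone, -0.0232 with siSF3B1-13 alone), TNC there (-0.13 with siSF3B1-16, -0.0669 with siNT1) and FN1 with siSF3B1 in DMSO (0.0102 with siSF3B1-13). With siRBM39 in 4OHT they were FN1 (0.0713, siRBM39-06) and CD44 (-0.0689, siRBM39-08). Between knockdowns they were FN1 in DMSO (-0.19) and CD44 in 4OHT (0.10), both with siSF3B1-16 and siRBM39-08. Among interactions they were CD44 (0.23, siRBM39-06), FN1 (0.0127 for siSF3B1-16, -0.0480 for siRBM39-08) and TNC (-0.10 with siRBM39-08, -0.0184 with siNT1). In PSI points, with siSF3B1-13 and siRBM39-06 alone, EDB was -0.50 and -1.86 with siSF3B1 in DMSO and 4OHT and -1.36 for the interaction, A1 was 0.97, -1.60 and 2.57 in 4OHT with siSF3B1, with siRBM39 and between them, and v10 was 0.39 with siRBM39 in DMSO. With siSF3B1-16 and siRBM39-08 alone, A3 was 1.24 with siSF3B1 in DMSO, v6 0.16 with siSF3B1 in 4OHT, EDB 0.13 between knockdowns in DMSO and the 1191-nt CD44 intron -0.16 for the interaction. With siNT1 alone, the 276-nt TNC exon was 0.0225 with RAS and -0.26 for the siRBM39 interaction, v10 0.56 with siRBM39 in DMSO, A1 -1.10 with siRBM39 in 4OHT and EDB -0.19 for the siSF3B1 interaction. With siNT2 alone, v6 was 0.26 with siSF3B1 in 4OHT.

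Counts of calls, in the order RAS, siSF3B1 in DMSO and 4OHT, siRBM39 in DMSO and 4OHT, between knockdowns in DMSO and 4OHT, and the siSF3B1 and siRBM39 interactions, were 7798, 7268, 7696, 4605, 5639, 6763, 7133, 3781 and 1413 genes and 123, 2055, 2305, 634, 717, 1794, 2018, 47 and 3 exons. A 2-fold minimum left 1849, 758, 1155, 129, 229, 462, 760, 223 and 43 genes, among them FN1 and VCAN with RAS and no other member. The siRBM39 interaction gave 4569 genes with siSF3B1-13 and siRBM39-06 alone, 2657 with the other pair, 537 with siNT1 and 628 with siNT2, and the siSF3B1 interaction gave 2352 with siNT1. For exons, no minimum difference gave 210, 3946, 4256, 1214, 1254, 3488 and 3744, and 79 for the siSF3B1 interaction. A 10-point minimum gave, from siSF3B1 in DMSO on, 1075, 1295, 318, 387, 906 and 1095, and 26 for that interaction. Plain logit on PSI from 1 to 99, which tests fewer exons, gave 328, 338, 253, 273, 282, 287, 17 and 0 in the same order by limma, and coverage of at least LOW gave 1292 and 1399 (siSF3B1), 464 (siRBM39 in 4OHT), 1119 and 1239. The exon interactions were 5 and 1 with quasi-binomial reads, 155 and 7 with siSF3B1-13 and siRBM39-06, 74 (siSF3B1) with the other pair, 2 and 1 with siNT1 and 1 (siSF3B1) with siNT2, and RAS gave 59 exons with siNT1 and 81 with siNT2. The other causes were not tested.

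Leaving out a replicate gave 657 to 2499 genes and 1 to 3 exons for the siRBM39 interaction and 24 to 50 exons for the siSF3B1 interaction. Uncalled PSI differences that turned sign ranged from -0.95 to 0.66 (v10, siRBM39 in DMSO), -0.22 to 0.71 (the CD44 intron, siSF3B1 interaction), -0.38 to 1.77 (EDB, siSF3B1 interaction), -0.98 to 2.42 (A1, siRBM39 in 4OHT), -0.56 to 4.08 (A1, between knockdowns in DMSO), -0.0733 to 0.24 (the 276-nt exon, siRBM39 interaction) and -4.52 to 1.10 (C, siSF3B1 interaction). Log2 fold changes that did so ranged from -0.0130 to 0.0364 (CD44, siSF3B1 in 4OHT), -0.21 to 0.0124 (CD44, siRBM39 interaction), -0.12 to 0.0531 (FN1, siRBM39 in 4OHT), -0.0167 to 0.0437 (TNC, siSF3B1 in 4OHT), -0.0788 to 0.19 (TNC, siRBM39 interaction) and -0.0355 to 0.18 (VCAN, siRBM39 in 4OHT). Reads per library behind the tested exons were fewest for A1 (31 to 146), and the thinly covered exons outside the test, such as VCAN GAG-alpha (1 to 51), had fewer.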
